A study of Mus musculus with 4 samples.

Results

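The killer cell lectin-like receptors described here are 10 genes, *Klra1*, *Klra3*, *Klra4*, *Klra7*, *Klra8*, *Klra9*, *Klrb1c*, *Klrk1*, *Klrc1* and *Klrg1*, chosen by symbol from the 32285 genes counted in single cells of mouse tibial muscle. The samples came from *Nse-Bmp4* mice on the C57BL/6 strain, 6 to 8 weeks old, in which the rat *Nse* promoter drives a murine *Bmp4* cDNA and in which cardiotoxin (CTX) injury of the muscle is followed by heterotopic ossification. One library was uninjured muscle, and the others were muscle taken 1, 3 and 7 days after CTX injury (dpi). All 4 libraries carried the transgene, so none was wild type, and each pooled 3 tibial muscles. With 1 library for each time point no difference between time points could be tested. The intervals given below are exact 95% intervals for counting error alone, and do not contain the spread between mice or libraries. Those of levels, of ratios and of shares of counted molecules also leave out the spread between cells.

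These receptors sit on natural killer (NK) cells and on some T cells and innate lymphoid cells, and set whether the cell kills or spares a target. The *Klra* genes encode the Ly49 receptors of the mouse. Most Ly49 receptors read classical MHC class I molecules and inhibit through phosphatases recruited to their tails, as do Ly49A (*Klra1*), Ly49C (*Klra3*), Ly49G (*Klra7*) and Ly49I (*Klra9*), whereas Ly49D (*Klra4*) and Ly49H (*Klra8*) lack that inhibitory tail and signal through the adapter encoded by *Tyrobp*. Each NK cell switches on only some of the Ly49 genes, so that a mouse holds many NK cells with different sets. NKG2D (*Klrk1*) activates through the adapter encoded by *Hcst* on meeting stress-induced ligands, NKG2A (*Klrc1*) pairs with CD94 (*Klrd1*) and inhibits on reading the class Ib molecule encoded by *H2-T23*, *Klrb1c* encodes the NK lineage antigen used to sort NK cells in C57BL/6 mice, and KLRG1 is an inhibitory receptor for cadherins.

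All 10 genes lie on the minus strand of chromosome 6 in the GRCm38 annotation. The 6 *Klra* genes lie within 343 kb (chr6:130043731-130386874), and *Klrg1* lies apart from the others at chr6:122270596-122282882. The promoters of *Klra4* and *Klra8*, the activating pair, and of *Klra3* and *Klra9*, an inhibitory pair, are set side by side here. These genes were picked from their NK gate levels in the same libraries, given below. Any link of promoter sequence to those levels was not tested. The 150 bases upstream of the RefSeq start (GRCm38.p6, minus strand, written 5′ to 3′) are given here, with the 17 bases that all 4 share in capitals.
Klra4 chr6:130067272-130067421: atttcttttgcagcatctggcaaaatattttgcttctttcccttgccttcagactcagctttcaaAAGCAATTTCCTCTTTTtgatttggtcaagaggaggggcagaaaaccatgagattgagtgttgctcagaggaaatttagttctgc
Klra8 chr6:130129899-130130048: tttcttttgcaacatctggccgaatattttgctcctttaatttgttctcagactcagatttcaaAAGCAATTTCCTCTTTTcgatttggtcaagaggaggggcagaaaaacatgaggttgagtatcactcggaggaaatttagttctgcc
Klra3 chr6:130337627-130337776: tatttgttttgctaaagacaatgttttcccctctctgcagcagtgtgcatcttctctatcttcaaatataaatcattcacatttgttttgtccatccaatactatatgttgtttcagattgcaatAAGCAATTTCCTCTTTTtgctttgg
Klra9 chr6:130193113-130193262: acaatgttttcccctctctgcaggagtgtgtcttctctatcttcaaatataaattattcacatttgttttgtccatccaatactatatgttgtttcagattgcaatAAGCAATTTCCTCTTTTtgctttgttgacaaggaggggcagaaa
The shared run AAGCAATTTCCTCTTTT was present in 8 of the 32851 promoters in the RefSeq table (0.0244%), which belong to the 7 genes *Klra3*, *Klra4*, *Klra6*, *Klra8*, *Klra9*, *Klra17* and *Gm52487*. The run was taken from the 4 promoters shown, which are among those 8, so its presence in them was fixed beforehand. The share is therefore a description only. Over the 250 bases upstream of the start, *Klra3* and *Klra9* were identical at 97.0% of aligned bases and *Klra4* and *Klra8* at 85.1%, against 82.1% between *Klra8* and *Klra9* and 78.0% between *Klra4* and *Klra3*. Gaps were left out, and the aligned bases numbered 231, 249, 184 and 168 in that order, so the last 2 values cover less of the promoter. The other inhibitory genes were less alike to the activating pair, *Klra1* at 59.4% with *Klra4* and 54.3% with *Klra8* and the first entry of *Klra7* at 59.3% and 61.6%, while the second entry of *Klra7* gave 81.5% and 81.6%. Values between unrelated members were similar to the lower of these, as *Klrc1* with *Klra4* at 64.7%. *Klra8* also has a second entry, identical to *Klra9* at 59.5%. Of 3 motifs searched on both strands in the 11 promoter entries that matched 9 of the 10 members, TGTGGT (bound by RUNX factors) was in 4 entries, those of *Klra1*, *Klrb1c*, *Klrc1* and *Klrk1*, and in 14.0% of all promoters. GTGTGA (T-box factors) and TGANTCA (AP-1) were in none of the 11, and in 12.3% and 6.75% of all promoters. The near-identical copies also bear on counting: 0% of the 90-base windows from the last 500 bases of the transcripts of *Klra1*, *Klra4*, *Klra8*, *Klrk1* and *Klrg1* recur in a transcript of any other annotated gene, against 5.15% for *Klra3*, 6.57% for *Klra7*, 12.4% for *Klra9*, 11.4% for *Klrb1c* and 21.9% for *Klrc1* (with *Klrc2*), so the counts of the last 5 are less certain. Some windows of *Klra9* recur in *Klra8*, outside the last 500 bases of the *Klra8* transcripts.

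After filters, 52853 of 62665 deposited cells were kept, with a median of 3049 to 8638 unique molecular identifiers (UMIs, counts of single RNA molecules) per cell in a library. NK cells were taken as cells with an *Ncr1* UMI and no *Cd3e* UMI, a gate that uses no member: 90 cells in the uninjured library, 307 at 1 dpi, 458 at 3 dpi and 442 at 7 dpi, with a median of 3142, 4774, 3672.5 and 2530 UMIs. Values are given as UMIs per 1000000 of the gated cells' summed UMIs (CPM). *Il2rb*, an NK marker outside the gate, was detected in 84.4%, 93.8%, 89.96% and 57.9% of gated cells, so the label held less well at 7 dpi. In that library 4 stroma markers summed to 13064 CPM in the gated cells, against 1148 to 1939 CPM in the others, and 2 cartilage markers summed to 2562 CPM, against 0 in the others. Cells with over 2% of their UMIs from these 6 markers numbered 1, 2, 10 and 127 in order of time (28.7% at 7 dpi). The 7 dpi levels of the members in this gate, and the 7 dpi calls of the other genes, are given below with and without these cells. Leaving them out did not take away all stroma RNA. The 6 markers then still summed to 2461 CPM at 7 dpi, against 497 to 1167 CPM in the other libraries. Other markers differed too: neutrophil markers summed to 2.75, 201, 849 and 27.1 CPM, and monocyte markers to 1010, 105, 183 and 177 CPM. The uninjured cells thus had the highest summed monocyte marker level and the 3 dpi cells the highest summed neutrophil marker level. Detection per cell took another order. *Lyz2* gave 352 of the 367 uninjured monocyte marker UMIs, in 4.44% of cells, against 9.39% to 17.6% of cells in the other libraries. *S100a8* and *S100a9* were in 37.8% and 46.6% of cells at 1 dpi and in 12.7% and 14.0% at 3 dpi. The part of these markers in the results was not tested.

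*Klra4* and *Klra8*, the activating Ly49 genes, were high at 3 dpi. *Klra4* stood at 402 CPM (339 to 473) in uninjured muscle, 311 CPM (285 to 337) at 1 dpi, 622 CPM (589 to 655) at 3 dpi and 230 CPM (207 to 254) at 7 dpi. With all gated cells its intervals did not overlap between any of the libraries. Its UMIs came from 22 of 90 cells in uninjured muscle and 101 of 307 at 1 dpi. *Klra8* stood at 311 CPM (256 to 374), 332 CPM (306 to 360), 461 CPM (433 to 490) and 174 CPM (154 to 196) in the same order, with the uninjured and 1 dpi intervals overlapping. From 1 to 3 dpi the ratio was 2.002 (1.81 to 2.21) for *Klra4* and 1.39 (1.25 to 1.54) for *Klra8*. From 3 to 7 dpi the ratios were 0.369 (0.328 to 0.415) and 0.377 (0.329 to 0.432). When the cells high in stroma markers were left out, *Klra4* at 7 dpi was 355 CPM (318 to 394) and *Klra8* 273 CPM (241 to 307), and the ratios to 3 dpi were 0.551 (0.488 to 0.620) and 0.570 (0.496 to 0.653). The 7 dpi interval of *Klra4* then overlapped those of uninjured muscle (350 to 487) and 1 dpi (287 to 340) without such cells. Both genes were therefore lower at 7 than at 3 dpi in either set of cells, by a smaller factor in the second.

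The 4 inhibitory Ly49 genes were not high at 3 dpi. *Klra3* stood at 270 CPM (219 to 329) in uninjured muscle, 118 CPM (102 to 135) at 1 dpi, 89.5 CPM (77.5 to 103) at 3 dpi and 112 CPM (95.8 to 129) at 7 dpi. *Klra9* stood at 372 CPM (312 to 440), 204 CPM (184 to 226), 165 CPM (148 to 182) and 138 CPM (120 to 158). Both were thus higher in the uninjured library than in any injured one, with a 1 dpi to uninjured ratio of 0.436 (0.341 to 0.560) for *Klra3* and 0.550 (0.450 to 0.675) for *Klra9*. *Klra7* differed little before 7 dpi, at 283 CPM (231 to 344), 265 CPM (242 to 290), 243 CPM (223 to 265) and 151 CPM (132 to 171). *Klra1*, the gene of this set with the fewest UMIs, stood at 88.1 CPM (60.2 to 124), 78.3 CPM (65.9 to 92.4), 76.9 CPM (65.8 to 89.4) and 49.8 CPM (39.4 to 62.1). The 7 dpi value of *Klra7* stood below the rest and that of *Klra1* below 1 and 3 dpi, its interval meeting the uninjured one. Leaving out the cells high in stroma markers, the 7 dpi value was 227 CPM (198 to 259) for *Klra7* and 78.2 CPM (61.6 to 97.9) for *Klra1*. Both intervals overlapped those of 3 dpi without such cells (230 to 273 for *Klra7* and 68.3 to 92.7 for *Klra1*). Without those cells *Klra3* at 7 dpi was 176 CPM (151 to 204), a ratio to 3 dpi of 1.89 (1.53 to 2.34), and *Klra9* was 209 CPM (181 to 240), a ratio of 1.22 (1.02 to 1.46), where all gated cells gave 1.25 (1.012 to 1.53) and 0.839 (0.706 to 0.994). The direction for *Klra9* between 3 and 7 dpi therefore depended on those cells.

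**Figure D1:**
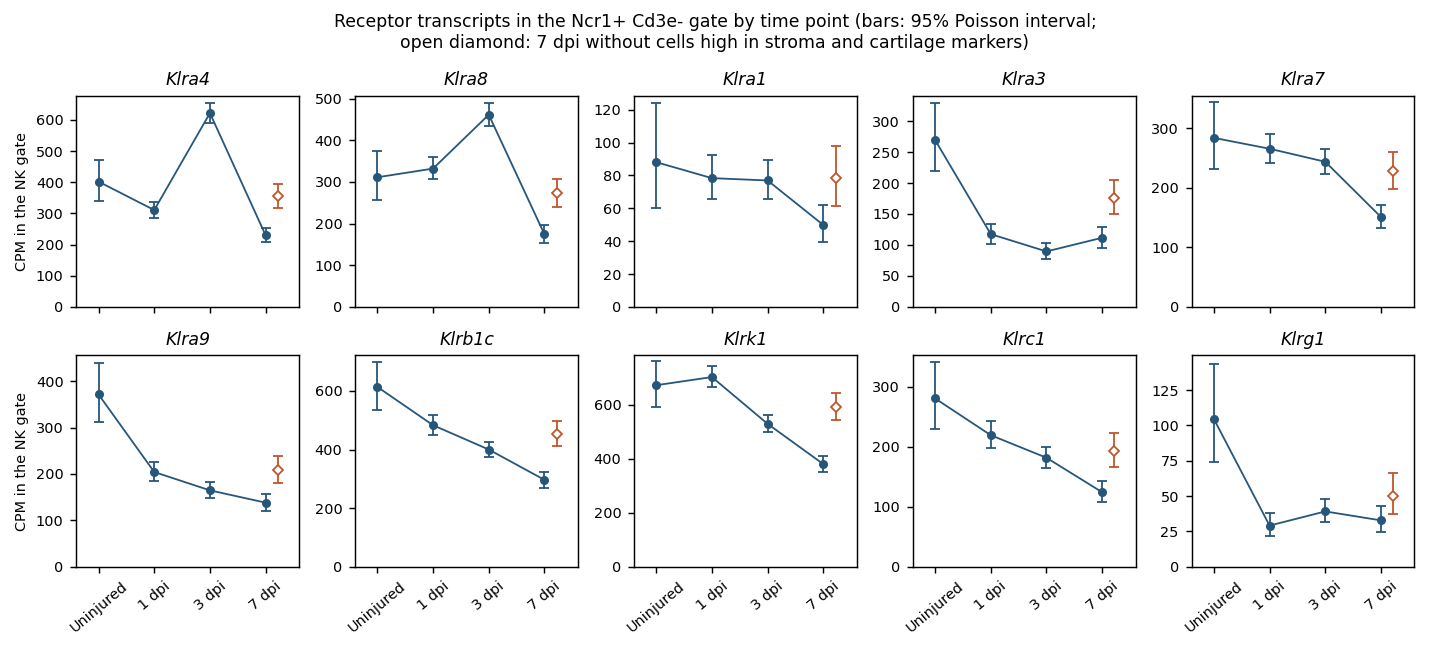
CPM of each receptor gene in NK gate cells (vertical axes) by library (horizontal axes), with bars for exact 95% counting intervals and separate points for 7 dpi without the cells high in stroma markers. *Klra4* peaks at 622 CPM and *Klra8* at 461 CPM at 3 dpi, while *Klra3* (270 CPM), *Klra9* (372 CPM) and *Klrg1* (105 CPM) are highest in the uninjured library.

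The mix of Ly49 transcripts and their total both differed between libraries. The 6 *Klra* genes summed to 1726 CPM (1593 to 1866) in uninjured muscle, 1308 CPM (1255 to 1362) at 1 dpi, 1657 CPM (1604 to 1712) at 3 dpi and 854 CPM (809 to 900.5) at 7 dpi. Without the cells high in stroma markers the last value was 1318 CPM (1247 to 1392), close to 1 dpi. *Klra4* and *Klra8* together gave 41.3% (37.4 to 45.3) of *Klra* UMIs in uninjured muscle, 49.1% (47.1 to 51.2) at 1 dpi, 65.3% (63.8 to 66.9) at 3 dpi and 47.3% (44.6 to 49.97) at 7 dpi, or 47.6% (44.9 to 50.4) at 7 dpi without those cells. The 3 dpi share stood above the interval of every other library, and the share at 7 dpi was alike with and without the cells high in stroma markers. *Mki67*, a marker of cycling cells, was also highest at 3 dpi, at 90.8, 35.3, 454 and 172 CPM in order of time. Its uninjured value rested on 33 UMIs in 6.67% of cells. Any link of cycling to the share was not tested. NK gate cells with at least 2 UMIs of *Mki67*, *Top2a*, *Birc5* and *Pclaf* made up 6.67%, 5.21%, 27.1% and 17.9% of the gate. At 3 dpi the share of *Klra4* and *Klra8* was 60.8% (58.3 to 63.3) of *Klra* UMIs in those 124 cells and 68.4% (66.4 to 70.3) in the others, so it was lower in the former. Cells outside that set gave 43.9% (39.8 to 48.0) in uninjured muscle, 50.02% (47.9 to 52.2) at 1 dpi and 48.6% (45.6 to 51.6) at 7 dpi. Those within it gave 8.70% (2.42 to 20.8) from 6 cells, 40.4% (33.8 to 47.2) and 41.7% (35.7 to 47.9).

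**Figure D2:**
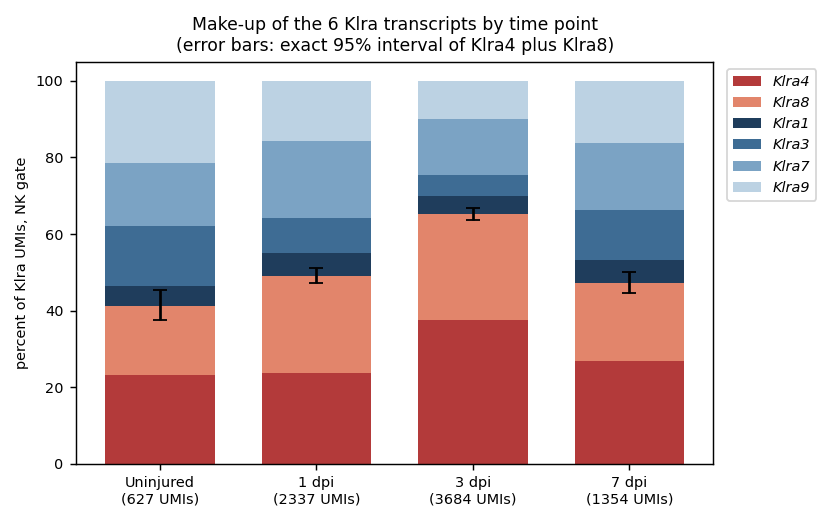
Share of *Klra* UMIs in NK gate cells that came from each of the 6 *Klra* genes (percent, vertical axis) in each library (horizontal axis), with bars for the exact 95% interval of *Klra4* plus *Klra8*. *Klra4* and *Klra8* together take 65.3% at 3 dpi and between 41.3% and 49.1% in the other libraries.

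*Klrb1c*, *Klrk1* and *Klrc1* were lower at 7 than at 3 dpi in all gated cells. *Klrb1c* stood at 614 CPM (536 to 699.8) in uninjured muscle, 483 CPM (451 to 516) at 1 dpi, 399.9 CPM (374 to 427) at 3 dpi and 296 CPM (270.2 to 324) at 7 dpi. *Klrk1* stood at 672 CPM (589.9 to 761), 702 CPM (663 to 742), 529 CPM (499 to 560) and 380 CPM (350 to 411) in that order, with the first 2 intervals overlapping. *Klrc1* stood at 281 CPM (229 to 341), 219 CPM (198 to 242), 182 CPM (164 to 200.3) and 124 CPM (107 to 143), each interval overlapping the next up to 3 dpi. The 7 dpi values without the cells high in stroma markers were 453 CPM (411 to 497) for *Klrb1c*, 592 CPM (544 to 642) for *Klrk1* and 193 CPM (167 to 223) for *Klrc1*, and their ratios to 3 dpi were 1.09 (0.973 to 1.23), 1.08 (0.977 to 1.20) and 1.03 (0.858 to 1.22). No difference between 3 and 7 dpi was detectable for these 3 genes at that depth. *Klrg1*, for which the NK gate held only 229 UMIs, stood at 105 CPM (74.0 to 143), 29.1 CPM (21.7 to 38.2), 39.1 CPM (31.3 to 48.3) and 32.8 CPM (24.5 to 43.0), and at 50.4 CPM (37.3 to 66.6) at 7 dpi without those cells. The uninjured value stood above every injured one, and with all gated cells the intervals of the 3 injured values overlapped. Without those cells the 7 dpi interval met that of 1 dpi (21.9 to 38.4 CPM) only at its edge.

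A gene was called between 2 libraries where its CPM differed by a factor of at least 2 and the interval of the ratio left out 1, among genes with at least 20 UMIs in the gate over both. At 1 dpi against uninjured, 2 of 10 members were called lower, *Klra3* and *Klrg1* (ratio 0.278, 0.180 to 0.434), beside 2.95% of 8143 genes, and 0 were called higher, beside 11.9%. The members' median log2 ratio was -0.35 and that of all genes 0.31. Scaling by the median of ratios in place of the total moved every log2 ratio of this comparison down by 0.29 and those of the other successive comparisons up by 0.02 and 0.16. At 3 against 1 dpi, 1 member was called higher, *Klra4*, beside 5.37% of 9812 genes, and 0 were called lower, beside 2.47%, with medians of -0.20 and -0.02. Without the cells high in stroma markers these counts were the same, 1 higher (*Klra4*, beside 5.09% of genes) and 0 lower (3.14%). The ratio of *Klra4* sat at the limit of 2 and passed it by less than its counting error, and the call was lost with no cell filters, with limits on linear counts, with doublets left in or set by rate, and in each of the 3 other NK gates tried, where its lowest log2 ratio was 0.72. At 7 against 3 dpi, *Klra4* and *Klra8* were called lower, beside 10.7% of 10072 genes, and 0 members were called higher, beside 10.9%. The medians were -0.51 for members and -0.15 for all genes. Without the cells high in stroma markers 0 members were called lower (8.12% of 9112 genes) and 0 higher (2.71%), and the members' median was 0.07, against -0.22 for all genes, so neither call between 3 and 7 dpi was kept once those cells were left out.

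The comparisons with the uninjured library share its 90 cells with the first comparison above. At 3 dpi, *Klra3*, *Klra9* and *Klrg1* were called lower (2.6% of genes), with ratios of 0.332 (0.259 to 0.427), 0.443 (0.363 to 0.544) and 0.374 (0.253 to 0.563). At 7 dpi these and *Klrb1c* and *Klrc1* were called lower (3.97%). Without the cells high in stroma markers only *Klrg1* was called, at 0.467 (0.300 to 0.734), beside 2.2% of genes, and 0 were called higher, beside 5.85%. No member was called higher than in uninjured muscle at 3 dpi, beside 11.2% of genes, although *Klra4* and *Klra8* had ratios of 1.55 (1.30 to 1.85) and 1.48 (1.22 to 1.82). *Klrg1* was called lower than uninjured at each of the 3 later times.

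The number of *Klra* genes detected per NK gate cell varied. Detection depends on depth, so these counts do not measure how many of the genes a cell used. Pooled over libraries, 333 of 1297 NK gate cells had no *Klra* UMI, 264 had UMIs of 1 *Klra* gene, 340 of 2, 244 of 3, 96 of 4, 19 of 5 and 1 of all 6. Cells with UMIs of a pair of genes were compared with the number the product of the genes' own shares gives, as a description only, because deeper cells show more genes and this alone lifts such counts. *Klra4* and *Klra8* met in 242 cells against a product of 158 (ratio 1.53), and *Klra1* and *Klra4* in 74 against 39.0 (1.90). *Klra3* and *Klra9*, the pair with the most alike promoters, met in 76 cells against 84.0 (0.905). Pooling libraries whose levels differ also shifts such products. Within libraries the ratio of *Klra3* with *Klra9* was 0.877 in uninjured muscle, 0.952 at 1 dpi, 0.641 at 3 dpi and 1.13 at 7 dpi, so it was not below 1 in each. With each cell thinned to 1000 UMIs, 64.4% of uninjured NK gate cells, 60.6% at 1 dpi, 64.1% at 3 dpi and 46.1% at 7 dpi (58.5% without the cells high in stroma markers) had a *Klra* UMI of any of the 6 genes. A single random draw gave these shares, and the means over all possible draws were 67.6%, 58.9%, 65.8% and 44.9%. Thinning left out 0, 0, 12 and 17 shallower cells, and before it the shares were 86.7%, 79.2%, 82.1% and 60.4%. B cells, which should lack these receptors, gave 0.441% thinned and 1.68% unthinned at a median of 2648 UMIs, against 3531 in the NK gate.

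**Figure D3:**
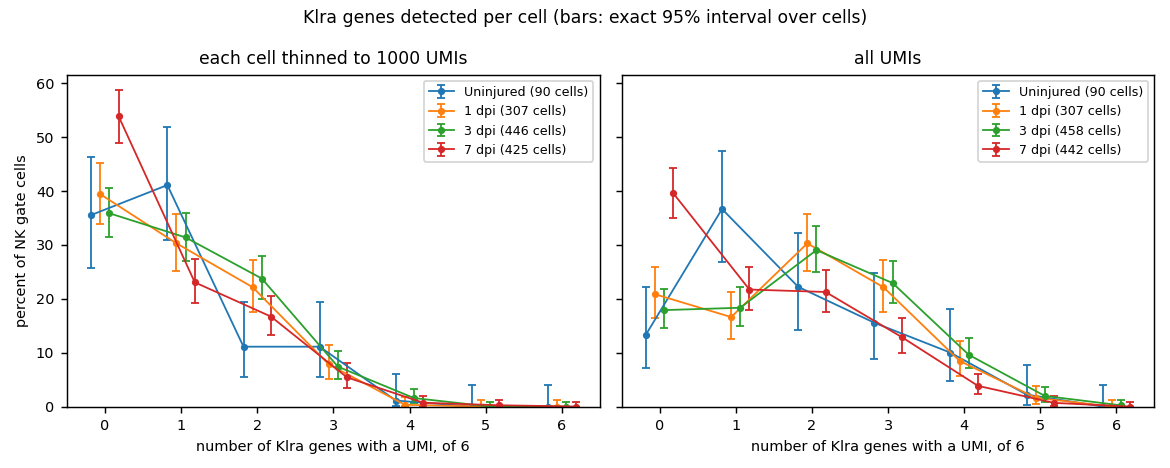
Share of NK gate cells (percent, vertical axis) with UMIs of 0 to 6 *Klra* genes (horizontal axis) in each library, after thinning each cell to 1000 UMIs (left) and with all UMIs (right), with bars for exact 95% intervals. Thinned cells with none make up 35.6%, 39.4%, 35.9% and 53.9% in order of time.

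Outside the NK gate the members split into those near the NK lineage and those shared with other lymphocytes. The 26 cells with both *Ncr1* and *Cd3e* UMIs, which the NK gate leaves out, held *Klra1* at 144 CPM (85.2 to 227), *Klrk1* at 615 CPM (486 to 769) and *Klrc1* at 279.7 CPM (195 to 389), against pooled NK gate values of 70.8, 550 and 184 CPM. The interval of *Klrk1* held its NK gate value. In these cells 13 of 18 *Klra1* UMIs came from the 9 cells at 1 dpi, and 29 of 77 *Klrk1* UMIs from the 4 uninjured cells. The other members had 9 (*Klra3*), 9 (*Klra4*), 26 (*Klra7*), 14 (*Klra8*), 11 (*Klra9*), 40 (*Klrb1c*) and 3 (*Klrg1*) UMIs there, of 125145 in all. *Klra4* and *Klra8* thus made up a smaller part there than in the NK gate, which held 2447 and 2007 among 5959417 UMIs. Of each member's UMIs in all kept cells, the NK gate held between 32.4% (*Klrg1*) and 63.3% (*Klra8*), and cells in no gate held 31.6% (*Klra3*) to 45.4% (*Klrk1*). CD8+ T cells (*Cd3e* and *Cd8a* UMIs, 442 cells) held 0 UMIs of *Klra4* and 2 of *Klra8*, against 2447 and 2007 in the NK gate. With the count of 0 set against a floor of 3 cells, the 442 cells give a floor of 0.679% of cells with a *Klra4* UMI. This floor is not an exact interval limit. *Klra7*, an inhibitory gene, was present in CD8+ T cells at 37.7 CPM (29.8 to 46.9), with 6.79% of cells holding a UMI, and at 81.1 CPM (53.9 to 117) in those of uninjured muscle. In the *Ccr7*- CD8+ cells the summed *Klra* level was 366 CPM (271 to 484) in uninjured muscle, 28.9 CPM (15.4 to 49.3) at 1 dpi, 109 CPM (80.5 to 144) at 3 dpi and 63.5 CPM (36.3 to 103) at 7 dpi. The uninjured value came from 28 cells, of which 7 held a *Klra* UMI. The 112 innate lymphoid cells of group 2 (ILC2) held 0 *Klra* UMIs, and the B cells 6.59 CPM (4.73 to 8.93).

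*Klrk1* and *Klrc1* were the members with the most UMIs in CD8+ T cells. Within CD8+ T cells, *Klrk1* stood at 252 CPM (225 to 281) where *Ccr7*, a gene of naive and central memory T cells, was not detected and at 50.5 CPM (36.3 to 68.6) where it was, a ratio of 4.98 (3.59 to 7.08). *Klrc1* stood at 120 CPM (102 to 141) and 32.1 CPM (20.9 to 47.0), a ratio of 3.76 (2.47 to 5.94). The *Ccr7*- cells were not alike over time. Their *Klrk1* level was 493 CPM (382 to 628) in uninjured muscle, 304 CPM (255 to 359) at 1 dpi, 187 CPM (149 to 231) at 3 dpi and 147 CPM (103 to 203) at 7 dpi, so it was lower at 3 and 7 dpi than at either earlier time. Stroma markers in these cells summed to 314, 759, 1082 and 6317 CPM and cartilage markers to 0, 0, 0 and 1814 CPM. Without the 0, 1, 1 and 2 cells high in them, *Klrk1* stood at 493, 312 (262 to 369), 192 (153 to 238) and 169 CPM (119 to 234), in the same order. Their *Klrc1* level was 82.2 CPM (41.0 to 147), 115 CPM (86.2 to 151), 131 CPM (99.8 to 169) and 131 CPM (90.2 to 184), all overlapping. The NK gate to *Ccr7*- CD8+ ratio for *Klrc1* was 3.41 (1.83 to 7.05) in uninjured muscle and 0.948 (0.653 to 1.42) at 7 dpi, with 1.90 (1.42 to 2.59) and 1.39 (1.05 to 1.85) between them. Both gates held stroma RNA at 7 dpi, and without the cells high in it on either side the ratio was 1.28 (0.880 to 1.91) there and 3.52 (1.89 to 7.28) in uninjured muscle. The *Ccr7*- CD8+ cells left at 7 dpi still held 4392 CPM of stroma and cartilage markers, so that RNA was only partly removed.

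Gamma-delta T cells (146 cells) held *Klrk1* at 211 CPM (175 to 253), with UMIs in 38.4% of cells, and *Klrb1c* at 52.4 CPM (35.4 to 74.8), with UMIs in 11.6%. Their 23 *Klra1* UMIs came mostly from 1 cell, which held 52.2% of them. The *Klrk1* UMIs of this gate numbered 6, 60, 23 and 32 in order of time, among 48997, 172021, 173823 and 177637 UMIs. Stroma markers in this gate summed to 388, 186, 3055 and 11625 CPM, and cartilage markers to 4442 CPM at 7 dpi. Its levels were computed with all gated cells only. Monocytes and macrophages held *Klrk1* at 29.1 CPM (26.7 to 31.6) in 13.8% of 2319 cells, at a median of 7332 UMIs per cell. In each library it stood between 23.4 and 35.8 CPM there. The other 3 non-*Klra* members stood at 0.532 CPM (*Klrb1c*), 0.425 CPM (*Klrc1*) and 0.106 CPM (*Klrg1*) in the same cells, against 410, 184 and 38.4 CPM in the NK gate, while among the other lectin-like genes *Klrd1* stood between 19.2 and 54.9 CPM there over the libraries and *Klrb1b* between 6.16 and 75.6 CPM. Plasmacytoid dendritic cells held *Klrk1* at 23.6 CPM (16.9 to 32.2).

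*Klrg1* was the exception among the members in its distribution. ILC2 cells (*Gata3* and *Il1rl1* UMIs, without *Cd3e*, *Ncr1* or *Ms4a2*) held *Klrg1* at 162 CPM (92.5 to 263) in uninjured muscle, 264 CPM (197 to 347) at 1 dpi, 140 CPM (87.6 to 212) at 3 dpi and 111 CPM (59.0 to 190) at 7 dpi, with UMIs in 48.2% of the 112 cells. The NK gate level was below the ILC2 level, with ratios of 0.110 (0.0734 to 0.165) at 1 dpi, 0.280 (0.174 to 0.469) at 3 dpi and 0.296 (0.159 to 0.592) at 7 dpi, and a ratio of 0.646 (0.352 to 1.24) in uninjured muscle, whose interval holds 1. In ILC2 the intervals of uninjured and 1 dpi overlapped, whereas in the NK gate the 1 dpi value was the lower. Stroma markers in the ILC2 gate summed to 3035, 3779, 7101 and 11139 CPM in order of time. Cartilage markers summed to 477 CPM there at 7 dpi. The ILC2 levels and the ratios to them were computed with all gated cells only. Regulatory T cells, of which only 25 were gated, held 23 *Klrg1* UMIs in 7 cells, and 0 UMIs of *Klrk1*.

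**Figure D4:**
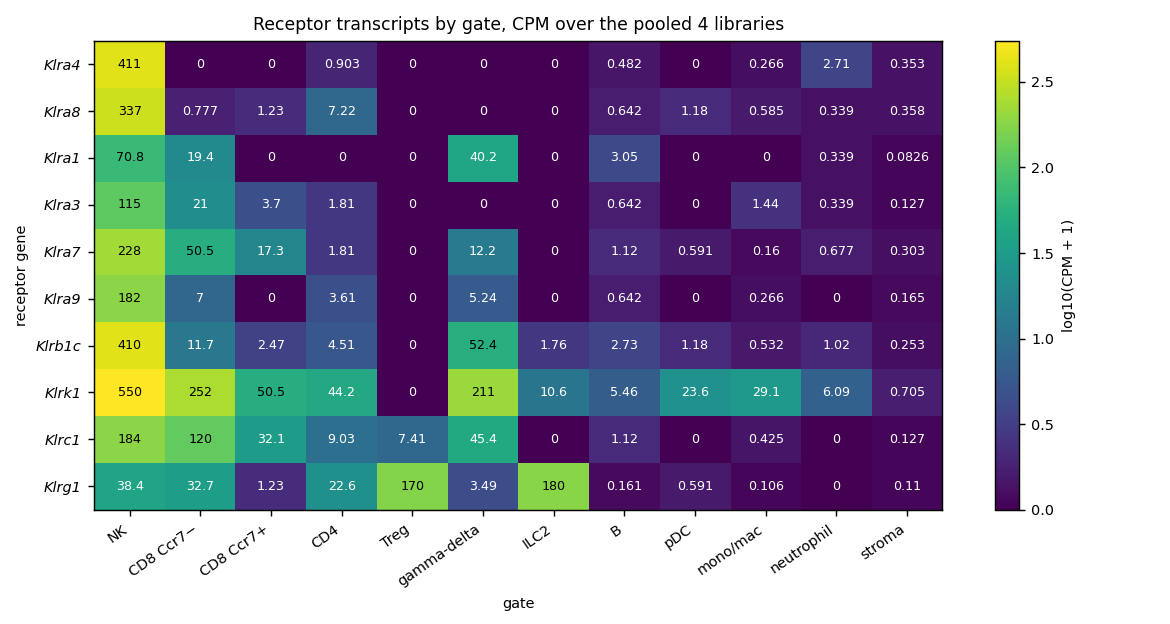
CPM of each receptor gene (rows) in each cell gate (columns), all libraries pooled, with the CPM printed in each cell and colour on a log10 scale after adding 1. Among the gates drawn, which leave out the 26 cells with both *Ncr1* and *Cd3e* UMIs, the *Klra* genes and *Klrb1c* are highest in the NK gate, *Klrk1* and *Klrc1* extend to *Ccr7*- CD8+ T cells at 252 and 120 CPM, and *Klrg1* is higher in ILC2 (180.0 CPM) than in the NK gate (38.4 CPM).

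Partners of these receptors in the NK gate gave a wider view. Of all genes in that gate, 11.9% were called higher and 2.95% lower at 1 dpi against uninjured. These shares were 5.37% and 2.47% at 3 against 1 dpi, and 10.9% and 10.7% at 7 against 3 dpi. Without the cells high in stroma markers they were 2.71% and 8.12% at 7 against 3 dpi. For 1 dpi against uninjured they were not computed without those cells. Counts of calls in the short lists were not tested against these shares. Among 15 other lectin-like receptor genes in the files, 8 had enough UMIs to be compared at 1 dpi against uninjured and at 3 against 1 dpi, and 0 were called in either direction, with medians of -0.13 and 0.01. At 7 against 3 dpi 2 of 9 were called lower, *Klrb1b* (ratio 0.428, 0.344 to 0.530) and *Klri2* (0.482, 0.392 to 0.591). Neither was called without the cells high in stroma markers, at 0.614 (0.488 to 0.765) and 0.717 (0.579 to 0.882), where *Klra5* was called higher from 11 and 14 UMIs. *Klrd1*, the partner of NKG2A, stood at 762, 385, 528 and 365 CPM in order of time, and at 556 CPM at 7 dpi without those cells. Of 5 adapter and phosphatase genes, 2 were called lower at 1 dpi: *Tyrobp*, through which Ly49D and Ly49H signal, at 2846, 1378, 1253 and 1368 CPM, and *Fcer1g* at 2218, 1003, 1194 and 970 CPM. Both are also strongly expressed in monocytes, whose summed markers were highest in the uninjured gate. Of those 367 marker UMIs, 352 were of *Lyz2*, in 4.44% of the uninjured cells. *Tyrobp* was detected in 96.7% and *Fcer1g* in 98.9% of these cells. A part of monocyte RNA in the 2 levels was not tested. *Hcst*, the NKG2D adapter, stood at 727, 370, 287 and 347 CPM. Without the cells high in stroma markers the 7 dpi values were 2087, 1472 and 543 CPM for *Tyrobp*, *Fcer1g* and *Hcst*, the 1 adapter or phosphatase gene called lower at 7 against 3 dpi, *Inpp5d* (0.410, 0.320 to 0.521), was not called, and *Hcst* and *Klrd1* also passed the limit at 1 dpi against uninjured, with ratios of 0.497 and 0.493. *Tyrobp* therefore did not follow *Klra4* and *Klra8* upward at 3 dpi, with a 3 to 1 dpi difference within 0.14 on the log2 scale.

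Maturation genes, effectors and proliferation genes were compared by the same rule. Of all genes in the gate, 11.9% were called higher and 2.95% lower at 1 dpi against uninjured. These shares were 5.37% and 2.47% at 3 against 1 dpi, and 10.9% and 10.7% at 7 against 3 dpi. At 7 against 3 dpi without the cells high in stroma markers they were 2.71% and 8.12%. Of 6 NK maturation genes, 1 was called higher (*Cd27*) and 1 lower (*S1pr5*) at 1 dpi, 0 and 1 (*S1pr5*) at 3 dpi, and 0 and 3 (*Itgam*, *Itga2* and *Eomes*) at 7 dpi against the time before. Only *Eomes* of these 3, with the cells high in stroma markers left out, was called at 7 dpi (ratio 0.435, 0.365 to 0.516), with *Itgam* at 0.7003 (0.516 to 0.939) and *Itga2* at 0.687 (0.508 to 0.918). *S1pr5*, which marks mature NK cells, stood at 68.8, 30.2, 13.5 and 13.2 CPM, the last 21.6 CPM without those cells. Of 9 effector genes 5 were called lower at 1 dpi, among them *Gzma* at 9208 and 2765 CPM and *Ccl5* at 16933 and 4548 CPM, and 1 (*Gzmb*) at 3 dpi. With all gated cells 0 effectors were called at 7 against 3 dpi, and *Xcl1* was called higher without those high in stroma markers (2.21, 2.03 to 2.41). All 4 proliferation genes were called higher at 3 against 1 dpi and 3 of them lower at 1 dpi against uninjured. The uninjured counts were 33 to 36 UMIs per gene, in 5.56% to 10% of the 90 cells. Gated cells with at least 2 UMIs of the 4 genes made up 6.67% (2.49 to 13.9) in uninjured muscle. At 1 dpi they made up 5.21% (3.01 to 8.33), so the intervals of these shares overlapped. At 7 against 3 dpi 2 were called lower with all gated cells and 0 without those high in stroma markers. Of 4 genes of group 1 innate lymphoid cells, *Il7r* was called higher at 1 dpi, from 1 UMI in uninjured muscle (ratio 25.2, 4.44 to 1004), and lower at 7 dpi, also without the cells high in stroma markers (0.412, 0.252 to 0.647).

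The ligands were read in stroma cells (19537 cells), the largest gate. *Ulbp1*, a ligand of NKG2D, stood at 0.657, 0.901, 4.70 and 5.96 CPM in order of time, with a 3 to 1 dpi ratio of 5.22 (3.49 to 8.10). *Raet1d*, of the same group, stood at 0.843, 0.434, 2.31 and 1.73 CPM, with a ratio of 5.32 (2.98 to 10.3). *Raet1e* had only 2 UMIs at 1 dpi and 38 at 3 dpi, a ratio of 12.3 (3.17 to 105). These NKG2D ligands were higher at 3 dpi than at 1 dpi in stroma, all at under 10 CPM. *Klrk1* itself was lower at 3 than at 1 dpi in the NK gate. Without the cells high in stroma markers its ratio was 0.774 (0.714 to 0.839). In the NK gate, *Ulbp1* was the 1 of 6 tested ligand genes called higher at 3 against 1 dpi (ratio 4.02, 2.44 to 6.97), beside 5.37% of all genes. At 1 dpi against uninjured 0 ligand genes were called, beside 11.9% of all genes higher and 2.95% lower. At 7 against 3 dpi, *Cdh2* was called higher there and *Ulbp1* and *Clec2i* lower, of 7 tested, beside 10.9% and 10.7% of all genes. Only *Ulbp1* was called, lower, of 6 tested without the cells high in stroma markers (0.278, 0.139 to 0.509), beside 8.12% of all genes.

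The class I ligands took another course. *H2-T23*, the ligand of NKG2A, stood at 99.6, 172, 50.3 and 41.1 CPM in stroma, so it was highest at 1 dpi, with a 3 to 1 dpi ratio of 0.292 (0.278 to 0.306). *H2-K1* stood at 488, 635, 519 and 225 CPM and *H2-D1*, another classical class I gene read by Ly49 receptors, at 821, 765, 636 and 292 CPM. Both were lowest at 7 dpi, with 7 to 3 dpi ratios of 0.433 (0.422 to 0.444) and 0.459 (0.448 to 0.469). *Clec2d*, a lectin of the family read by *Klrb1* receptors, stood at 65.1, 144, 87.6 and 44.6 CPM. *Cdh2*, a cadherin bound by KLRG1, stood at 2.07, 2.50, 8.71 and 46.3 CPM, with a 7 to 3 dpi ratio of 5.31 (4.76 to 5.94).

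**Figure D5:**
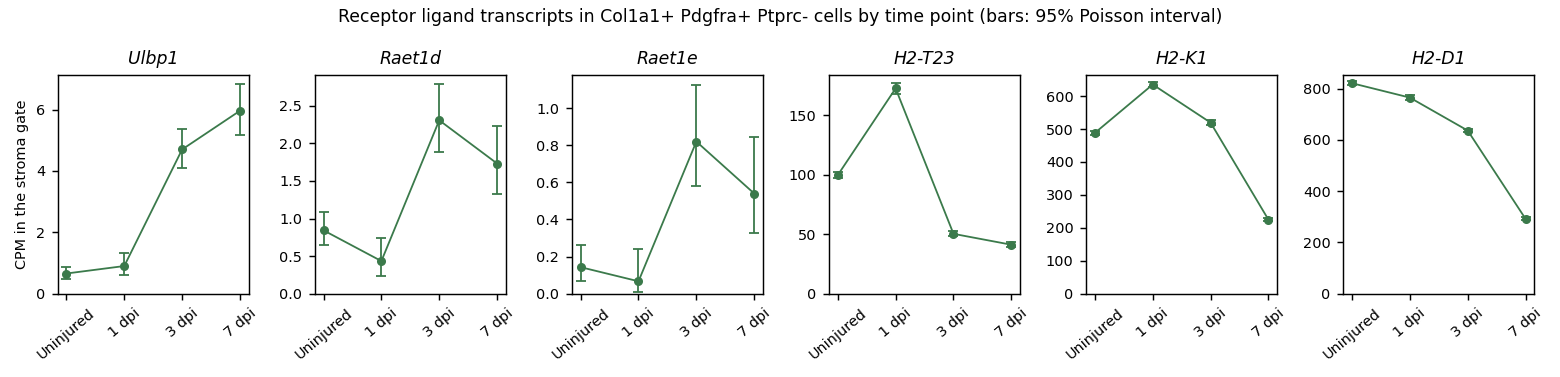
CPM of receptor ligand genes in stroma gate cells (vertical axes, linear and of a different range for each gene) by library (horizontal axes), with bars for exact 95% counting intervals. *Ulbp1* goes from 0.901 to 4.70 CPM between 1 and 3 dpi, while *H2-T23* is highest at 1 dpi (172 CPM).

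The genes most like the members were named from the Pearson correlation of log2(CPM + 10) over 39 points, each a gate in a library with at least 20 cells, among 13645 genes. The points share libraries, and the NK gate points lead most of these patterns, so the values are a description. The summed *Klra* level was most like *Klre1* (0.963), *Prf1* (0.921), which encodes perforin, and *Gzma* (0.912). *Klrc1* was most like *Samd3* (0.962), *Klrc2* (0.954) and *Klre1* (0.938), and *Klrc2* shares sequence with it. *Klrk1* was most like *Klrc2* (0.894), *Ctsw* (0.888) and *Samd3* (0.882). *Klrb1c* was most like *Klrb1f* (0.918), *Styk1* (0.900) and *Ncr1* (0.897), the last of which defines the NK gate. *Klrg1* was most like *Gata3* (0.830), which defines the ILC2 gate, *Tnfrsf18* (0.820) and *4930486L24Rik* (0.8002).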

How the data were processed

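Single-cell RNA counts of 4 libraries of tibial muscle were used, 1 for each time point, each from 3 pooled muscles. The deposited values were raw UMI counts per gene and cell, which the authors made with Cell Ranger 5.0.0 and its STAR aligner. The submitters' processing notes name the mm10 build and Seurat 3.1.1. Down-sampling of reads is named in the labels, without saying if it was applied to these tables. The end of the transcript that was read is not given in the sources used here.

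Cells beyond 2 SD of the mean of log10 UMIs or genes, or with over 10% mitochondrial UMIs, were removed, and so were the 7.5% of each library's cells with the highest Scrublet score (scanpy 1.11.5). The libraries held 91146335 to 129007669 UMIs, and pairs of libraries shared 30 to 95 cell barcodes. Groups came from the labels. Gates were set by marker UMIs, UMIs were summed per gate and library, and values are UMIs per 1000000 of that sum (CPM). Intervals are exact at 95%: Poisson for CPM, Clopper-Pearson for shares and conditional binomial for ratios. They cover counting error only, and no test was run with 1 library per time point. A count of 0 was set against a floor of 3. Scripts (Python 3.11.15, scipy 1.17.1) were tested on simulated data. Alternatives covered filters, doublets, gates, scaling, thinning, the fold and the count minimum. Sequences are from RefSeq (GRCm38.p6), with no entry for *Klrg1*, and positions from GENCODE on GRCm38.

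The named genes are the 10 members, the fixed lists of other receptors, adapters, ligands, maturation, group 1 innate lymphoid, effector and proliferation genes, and for the summed *Klra* and each other member the 3 most alike genes. The members and lists were chosen with earlier results of these data known.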

Additional observations from a re-analysis of the deposited data

How the results depend on the processing

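No paired analysis was possible because each time point had a single library, and for the same reason no library could be left out. Depth limits *Klrg1* and *Klra1* most. The share of *Klra* UMIs from *Klra4* and *Klra8* kept the order of the libraries in every alternative run. The alternatives without the cells high in stroma markers, with median of ratios scaling and for that share were chosen after seeing the data. The cause of the movements was not tested. Of 177 values that answer a comparison 129 stayed within their interval or 1.5 times the count and 48 moved.

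Summed *Klra*, log2 ratio of 1 dpi to uninjured, was -0.40, and -0.19 with doublets left in, -0.037 with 2 *Ncr1* UMIs required and -0.69 with median of ratios scaling. At 3 against 1 dpi it was 0.34, and 0.19 with doublets left in, 0.22 with 2 *Ncr1* UMIs, 0.17 with 3 NK genes required, 0.25 with *Klrb1c* or *Ncr1*, 0.46 as a mean over cells and 0.22 with no cell filters. At 7 against 3 dpi it was -0.96, and -0.71 after thinning, -0.86 with doublets at 0.8% per 1000 cells, -0.82 with doublets left in, -0.48 with 2 *Ncr1* UMIs, -0.87 with 3 NK genes, -1.05 with *Klrb1c* or *Ncr1*, -0.80 as a mean over cells or with median of ratios scaling and -0.38 without the cells high in stroma markers.

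With 2 *Ncr1* UMIs the share of *Klra4* and *Klra8* was 35.9% in uninjured muscle, 46.0% at 1 dpi and 63.7% at 3 dpi, and with 3 NK genes it was 45.4% in uninjured muscle and 51.6% at 1 dpi. The share of cells with a *Klra* UMI, in order of time, was 52.2%, 42.0%, 49.8% and 33.7% after thinning to 500 UMIs and 86.7%, 79.2%, 82.1% and 60.4% without thinning. With 2 *Ncr1* UMIs it was 74.5% in uninjured muscle, 69.2% at 3 dpi and 57.6% at 7 dpi, with doublets left in 54.3% at 1 dpi and 58.8% at 3 dpi, and without the cells high in stroma markers 58.5% at 7 dpi.

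With doublets left in, 1 member was called lower at 1 dpi. The call of *Klra4* at 3 against 1 dpi was lost (0 members) with no filters, with limits on linear counts, with doublets left in or set by rate, and in each of the 3 other gates. At 7 against 3 dpi, 4 members were called lower with a fold of 1.5, 1 with 2 *Ncr1* UMIs and 0 without the cells high in stroma markers (beside 8.12% of genes). For the other alternatives in this paragraph the share over all genes was not computed, so their member counts stand without a background. Directions were reversed, on the log2 scale, for *Klra4* at 1 dpi against uninjured (0.071) and, at 7 against 3 dpi, for *Klra1* (0.025), *Klrc1* (0.064) and *Klra9* (0.26) with 2 *Ncr1* UMIs. In the gate without the cells high in stroma markers they were reversed at 7 against 3 dpi for *Klrc1* (0.037), *Klrk1* (0.11), *Klrb1c* (0.13) and *Klra9* (0.29), and after thinning for *Klrc1* at 1 dpi against uninjured (0.35).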

Other observations

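*Klra* genes outside the 10 members were found in cells other than NK cells. *Klra2* stood at 49.4 CPM (40.7 to 59.3) in monocytes and macrophages of uninjured muscle, 61.0 CPM (56.4 to 65.7) at 1 dpi, 19.8 CPM (15.7 to 24.6) at 3 dpi and 31.9 CPM (23.3 to 42.7) at 7 dpi, and at no more than 1.26 CPM in the NK gate. The neutrophil gate also held *Klra2*, at 34.9 CPM (12.8 to 76.0), 37.3 CPM (29.6 to 46.3) and 22.1 CPM (11.4 to 38.7) up to 3 dpi. At 7 dpi it held 1 UMI of the gene. *Klra17* stood at 69.7 CPM (50.4 to 93.8) at 1 dpi and 62.2 CPM (47.8 to 79.6) at 3 dpi in plasmacytoid dendritic cells, and at 156 CPM (32.2 to 456) in the 3 such cells of uninjured muscle and 250.4 CPM (125 to 448) in the 10 at 7 dpi. *Klrb1b*, an inhibitory relative of *Klrb1c*, stood in monocytes and macrophages at 29.4 CPM (22.9 to 37.3) in uninjured muscle, 6.16 CPM (4.78 to 7.81) at 1 dpi, 75.6 CPM (67.4 to 84.6) at 3 dpi and 21.3 CPM (14.3 to 30.3) at 7 dpi.

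NK gate cells at 3 dpi with at least 2 UMIs of proliferation genes were compared with the other NK gate cells of that library, a split chosen after seeing the data. The 124 cells of the first kind had a median of 7064.5 UMIs and the others 3110.5. The CPM ratio of the first to the others was 1.44 (1.21 to 1.71) for *Klra7*, 0.690 (0.605 to 0.786) for *Klra8*, 0.824 (0.738 to 0.919) for *Klra4* and 0.632 for *Klra9*.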
